A study of Mus musculus with 16 samples.

Results

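*C1qa*, *C1qb*, *C1qc*, *C2*, *C3*, *C4b*, *Cfb*, *C3ar1* and *C5ar1* are genes of the complement system, grouped by their place in it. The set was chosen with earlier results of these data known. These 9 genes were looked up by symbol in the probe-to-gene table of the array platform, and the transcript cluster with the highest mean, a cluster being the probes that the array reports as 1 value, was taken for each. *C3* had no cluster named in the tables used here. The other 8 had 1 cluster each, among 19505 named genes, so that the central protein of the cascade was not analysed.

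RNA of epididymal adipose tissue from male C57BL/6 pups (dams of the NCrSlc substrain, by the methods) aged 16.5 wks was measured on Clariom S mouse arrays, 16 in all and 4 per group. NN pups came from dams fed ad libitum and were nursed 8 to a litter. The dams of UN-RG pups were held to 60% of the energy, and these pups were nursed 4 to a litter, which brings about rapid infantile growth (RG). The prenatal restriction and the small litter came together in every UN-RG pup, so that their effects cannot be told apart. From 9 wks onward all 4 groups ate a diet with 60% of lipid. Between 11 and 16.5 wks, NN-TU and UN-RG-TU pups received tauroursodeoxycholic acid (TU), a hydrophilic bile acid that relieves stress of the endoplasmic reticulum, at 0.5 g/kg per day by mouth, and NN-Veh and UN-RG-Veh pups received vehicle. The 4 samples called NN-TU here are titled as NN pups given TU and carry the ad libitum maternal diet, but another label field of theirs reads NN-RG-TU. They were grouped by title, diet and the study's group names, and if that field were right they would have been nursed in small litters too. The labels give neither litter nor batch. Pups of a group may be littermates, and the p-values measure the spread between these arrays.

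Complement is a cascade of proteins in plasma and tissue that marks microbes and dying cells. In the classical pathway C1q, built from the A, B and C chains, binds antibody or cell debris and switches on the proteases C1r and C1s, which cleave C4 and C2 into an enzyme that cleaves C3. In the alternative pathway factor B joins cleaved C3 and is cut by factor D, a protease that adipocytes secrete, into another enzyme of the same kind, which feeds back on C3. The fragments C3a and C5a act on receptors of macrophages and other myeloid cells, and macrophages are the main source of C1q in most tissues.

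Levels are given as log2 of the deposited normalized intensity of each array, and a log2 fold change is the mean of the first group minus that of the second. Levels of different genes come from different probes and were not set against each other. Each fold change carries a standard error (SE) or a 95% interval from limma, fitted over all 22206 clusters. A gene is called higher or lower where it passed the thresholds of the study, namely a linear fold of 1.3 or more together with an unadjusted p under 0.05. None of the 8 genes passed an adjusted p of 0.05 in any comparison. Among all clusters 0.00901% passed the adjusted p between UN-RG-Veh and NN-Veh pups and 0% in each of the other comparisons.

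Arrays correlated at 0.977 to 0.995 within groups. Between 91.8% and 100% of the 220 antigenomic controls, whose sequences are absent from the mouse genome, lay below the mean of each complement gene. All 8 adipocyte markers were above the median of these controls in every group, and none of 3 epididymal epithelium markers was. Transcripts of motile cilia, which fat does not make, were high on 1 array of each group, namely NN-Veh 02, NN-TU 08, and the UN-RG arrays UN-RG-Veh 12 and UN-RG-TU 14. The mean of 8 cilia markers was 7.43 to 8.76 there and at most 6.06 on the other arrays. Values without these 4 arrays are given beside the calls of the 8 genes, and for the other genes where a call was lost. Calls that other genes gained without these arrays are given in part only. Other arrays stood apart by other lists. Testis and germ cell markers had a mean of 8.29 on NN-Veh 03 and 7.55 on NN-TU 08 and at most 5.99 elsewhere, and 3 of them were called lower in UN-RG-Veh against NN-Veh. Hepatocyte markers had a mean of 8.26 on NN-TU 06 and at most 6.79 elsewhere. The fits with 1 array left out include those without each of these.

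The chains of C1q were lower with TU in both kinds of pups, and in neither comparison did the treated and untreated arrays overlap. *C1qa*, which encodes the A chain, measured 12.64, 12.34, 12.79 and 12.32 in NN-Veh pups and 12.02, 11.98, 12.28 and 11.80 in NN-TU pups. It was 12.67, 12.71, 12.81 and 12.60 in UN-RG-Veh pups and 12.02, 12.06, 12.14 and 12.49 in UN-RG-TU pups. Of the 8 arrays of TU-treated pups, 7 were below all 8 untreated ones, and UN-RG-TU 16 was above NN-Veh 02 and NN-Veh 04. The log2 fold change with TU was −0.52 (SE 0.14, adjusted p = 0.263) in UN-RG pups and −0.50 (SE 0.14, adjusted p = 0.682) in NN pups, which is a linear fold of 1.43 and 1.41 downward.

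*C1qb*, the gene of the B chain, measured 13.77, 13.81, 13.97 and 13.53 in NN-Veh pups, and 13.13, 13.39, 13.45 and 12.87 in NN-TU pups. The UN-RG-Veh arrays had 14.01, 14.14, 14.15 and 13.73, and the UN-RG-TU arrays 13.13, 13.22, 12.78 and 13.56. The highest treated array of each kind of pup was below its lowest untreated one, and UN-RG-TU 16 was again the highest of its group. With TU *C1qb* was lower by a log2 fold change of −0.83 (SE 0.17, adjusted p = 0.0929) in UN-RG pups and of −0.56 (SE 0.17, adjusted p = 0.754) in NN pups. *C1qc*, the gene of the C chain, measured 11.95, 11.74, 11.90 and 11.72 in NN-Veh pups and 11.53, 11.25, 11.61 and 11.17 in NN-TU pups. Its UN-RG-Veh levels were 12.29, 12.02, 12.12 and 11.76, and its UN-RG-TU levels 11.22, 11.34, 11.05 and 11.55. All 8 treated arrays were below all 8 untreated ones. The log2 fold change of *C1qc* was −0.76 (SE 0.15, adjusted p = 0.0723) in UN-RG pups and −0.44 (SE 0.15, adjusted p = 0.802) in NN pups.

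**Figure D1:**
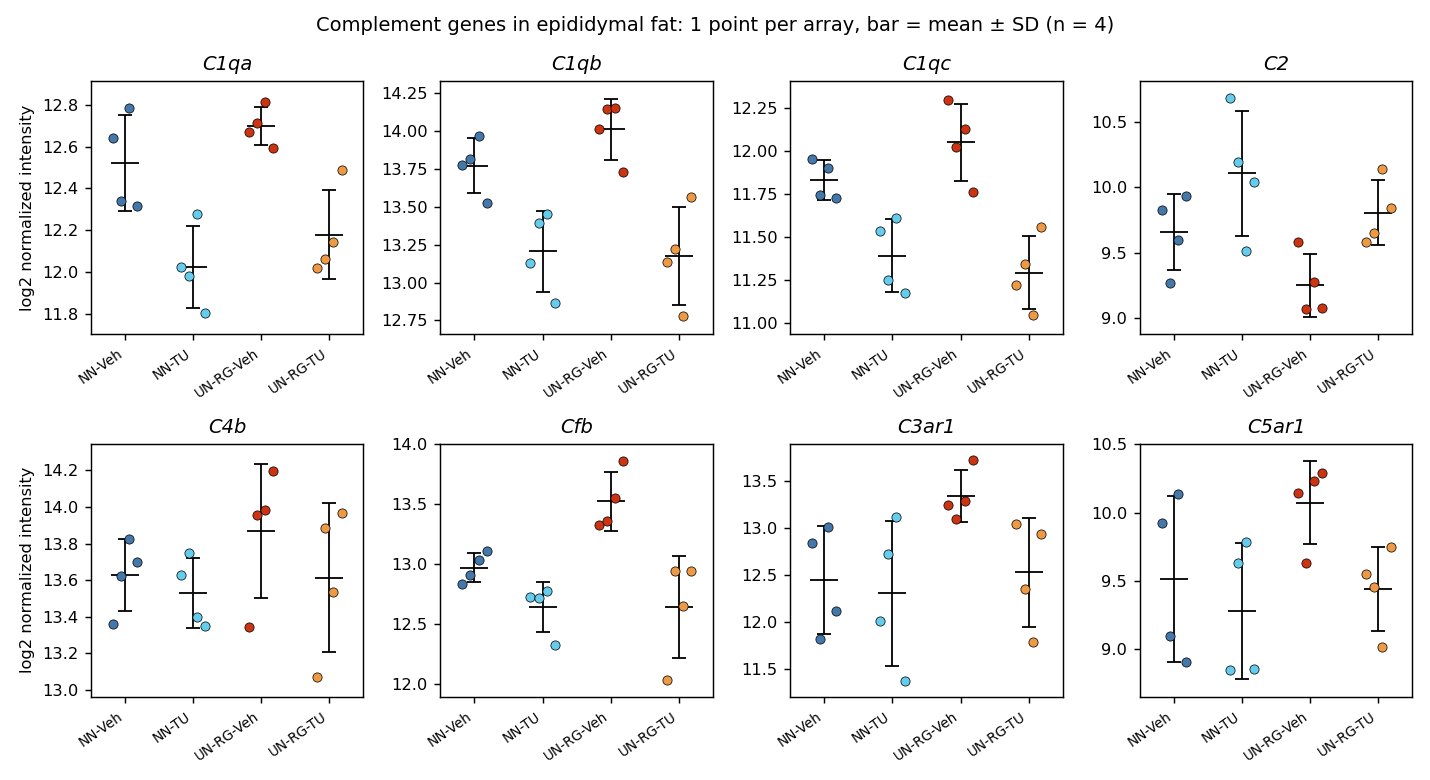
Log2 normalized intensity of the 8 measured complement genes on each array (points, 4 per group in the order of their numbers) with the mean ± SD of each group (bars). All 8 TU-treated arrays of *C1qc* are below all 8 untreated ones, the UN-RG-Veh arrays of *Cfb* are above every other array, and *C3ar1* and *C5ar1* spread widely within NN-Veh and NN-TU. Each panel has its own axis, which does not start at 0.

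UN-RG alone was not called for any chain. Between UN-RG-Veh and NN-Veh pups the log2 fold change was 0.18 (95% interval −0.13 to 0.48) for *C1qa*, 0.24 (−0.13 to 0.60) for *C1qb* and 0.22 (−0.09 to 0.53) for *C1qc*, and the groups overlapped for all 3. Whether TU acted by a different amount in UN-RG than in NN pups was tested as the interaction, in which the NN effect is taken from the UN-RG effect. It was −0.02 (SE 0.20) for *C1qa*, −0.27 (SE 0.24) for *C1qb* and −0.32 (SE 0.21) for *C1qc*, and none was called. The interval for *C1qc*, −0.76 to 0.12, leaves room for a larger effect in UN-RG pups and for none. Averaged over both kinds of pups, a contrast chosen after the values had been seen, the TU effect was −0.51 (SE 0.10) for *C1qa*, −0.70 (SE 0.12) for *C1qb* and −0.60 (SE 0.10) for *C1qc*, each with an adjusted p of 0.0765. When each array was left out in turn, these adjusted p-values ran from 0.0254 to 0.181 for *C1qa* and from 0.0213 to 0.181 for *C1qb* and *C1qc*. In UN-RG-TU pups *C1qb* and *C1qc* were also lower than in NN-Veh pups, by −0.60 (SE 0.17) and −0.54 (SE 0.15) with an adjusted p of 0.771 each. *C1qa*, at −0.34 (SE 0.14), missed the fold threshold there, and was called without NN-Veh 02 (−0.40), NN-Veh 04 (−0.41) or UN-RG-TU 16 (−0.45).

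Without the 4 arrays with cilia transcripts, *C1qa*, *C1qb* and *C1qc* kept their calls, with log2 fold changes of −0.52, −0.94 and −0.87 for TU in UN-RG pups and −0.49, −0.43 and −0.40 in NN pups. The averaged effects were then −0.50, −0.69 and −0.63, and UN-RG-TU against NN-Veh gave −0.60 for *C1qb* and −0.59 for *C1qc*, all called. Leaving out single arrays ended 1 of these calls, that of *C1qc* in NN pups, which without NN-TU 08 had a log2 fold change of −0.37 and fell short of the fold threshold. Macrophage markers moved in the same direction in part. Of 13 measured, 4 were lower and 1, *Lyve1*, was higher with TU in UN-RG pups, and 2 were lower in NN pups, with median log2 fold changes of −0.45 and −0.14. Of the 13, 12 or 13 had means above the antigenomic median in each group, and their summed intensity per array, in units of 1000, was 104 to 141 in NN-Veh pups, 77.9 to 122 in NN-TU pups, 114 to 135 in UN-RG-Veh pups and 90.7 to 119 in the UN-RG-TU pups, ranges that overlap. Mesothelial markers moved the other way, with 7 of 8 higher with TU in UN-RG pups and 0 of 8 in NN pups, and with summed intensities, in the same unit, of 4.61 to 8.39 in NN-Veh pups, 6.22 to 14.5 in NN-TU pups, 1.12 to 7.41 in UN-RG-Veh pups and 6.27 to 20.0 after TU. The part of either list in the lower C1q was not tested, and in whole tissue fewer macrophages and less RNA per macrophage cannot be told apart.

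The C1q chains also varied together. Over the 16 arrays Pearson's r was 0.90 between *C1qa* and *C1qb*, 0.88 between *C1qa* and *C1qc* and 0.93 between *C1qb* and *C1qc*. With the group means taken off, r was 0.71, 0.69 and 0.72. These points share arrays and their normalization and are given as a description. Their genes stand next to each other on chromosome 4, in the order *C1qb*, *C1qc*, *C1qa* among coding genes. Because these chains moved together, the 250 bases before the start of *C1qb* and *C1qc* are shown, from RefSeq on GRCm38.p6, both from the minus strand and written 5′ to 3′. No window was found for *C1qa*. Capitals mark the letters AGGAAG or their reverse complement CTTCCT, the core that ETS factors such as PU.1, a regulator of myeloid genes, bind.
*C1qb* (chr4:136886201-136886450): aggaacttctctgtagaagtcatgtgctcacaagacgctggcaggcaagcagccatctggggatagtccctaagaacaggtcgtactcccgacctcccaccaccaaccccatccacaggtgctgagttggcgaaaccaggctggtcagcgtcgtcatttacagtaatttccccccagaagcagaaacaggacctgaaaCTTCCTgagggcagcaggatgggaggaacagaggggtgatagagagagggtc
*C1qc* (chr4:136892915-136893164): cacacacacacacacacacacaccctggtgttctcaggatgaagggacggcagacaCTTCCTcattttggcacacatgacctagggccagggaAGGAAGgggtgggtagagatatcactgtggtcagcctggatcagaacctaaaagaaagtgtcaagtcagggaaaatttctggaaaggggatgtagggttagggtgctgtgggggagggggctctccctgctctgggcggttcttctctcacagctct
The core starts 52 bases before the start in *C1qb*, and 194 and 157 bases before it in *C1qc*, where the more distant match is part of the longer PU.1 letters GAGGAAG. Of 32851 RefSeq promoter windows of the same length, 29.5% hold AGGAAG on either strand and 10.6% hold GAGGAAG, so that both are common. AGGAAG was looked for after the sequences had been seen, and every GAGGAAG contains it. Both strands were searched. Neither window holds the interferon-linked letters TTCNNNGAA (GAS, in 7.02% of windows) or the ISRE motif (in 2.98%). A match describes the letters and shows no binding.

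Downstream of C1q in the classical pathway, *C4b* was not called in any comparison and *C2* was called higher, not lower, with TU in UN-RG pups. *C4b* encodes C4, the first substrate of C1s. Its levels were 13.36, 13.62, 13.83 and 13.70 in NN-Veh pups and 13.63, 13.75, 13.40 and 13.35 in NN-TU pups. They were 13.35, 13.95, 13.98 and 14.20 in UN-RG-Veh pups, with 13.07, 13.88, 13.53 and 13.97 after TU. All 4 groups overlapped. The log2 fold change was 0.24 (95% interval −0.19 to 0.68) for UN-RG-Veh against NN-Veh, −0.26 (−0.69 to 0.18) for TU in UN-RG pups and −0.10 (−0.53 to 0.34) for TU in NN pups. The interval for TU in UN-RG pups takes in the value of *C1qa*. Without UN-RG-Veh 09, the array with the lowest *C4b* of its group, *C4b* was called higher in UN-RG-Veh relative to NN-Veh pups (0.42, adjusted p = 0.580) and lower after TU in UN-RG pups (−0.43, adjusted p = 0.518). *C4a* is a near-identical copy of *C4b*, and how the probes divide them is not known, so that both are uncertain. *C4a* was not called either, at 0.48 (SE 0.30) for UN-RG and −0.55 (SE 0.30) for TU in UN-RG pups.

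*C2*, whose product is the protease part of the enzyme that C4 and C2 form, was the 1 gene of the 8 that was higher with TU. It measured 9.83, 9.27, 9.60 and 9.93 in NN-Veh and 10.68, 10.20, 9.51 and 10.04 in NN-TU pups. In UN-RG-Veh pups it was 9.58, 9.06, 9.27 and 9.08, and in UN-RG-TU pups 9.58, 9.65, 10.14 and 9.84. The UN-RG-TU arrays were all above the UN-RG-Veh arrays, with the lowest of the former and the highest of the latter equal at 2 decimals, and the NN groups overlapped. The log2 fold change with TU was 0.56 (SE 0.22, adjusted p = 0.514) in UN-RG pups, which was called, and 0.45 (95% interval −0.01 to 0.91) in NN pups, which was not. The interaction was 0.11 (SE 0.31), so that the 2 effects were not shown to differ. UN-RG-Veh against NN-Veh gave −0.41 (95% interval −0.87 to 0.06) for *C2*, not called, but called without NN-Veh 02 (−0.54), NN-TU 07 (−0.41) or UN-RG-Veh 09 (−0.52). The call with TU in UN-RG pups was lost without UN-RG-Veh 10 (0.49), UN-RG-Veh 12 (0.50) or UN-RG-TU 15 (0.44), and was kept without the 4 arrays with cilia transcripts (0.55). In NN pups the value reached the thresholds without NN-Veh 04 (0.54) or NN-TU 07 (0.65). Without NN-TU 07, *C2* was also called lower in UN-RG-TU relative to NN-TU pups (−0.50). The mesothelial markers moved in the direction of *C2*, with r = 0.55 over 16 arrays between their mean and *C2* and 0.29 with the group means taken off, and their part in the *C2* values was not tested.

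*Cfb*, the gene of factor B and the measured gene of the alternative pathway's enzyme, was higher with UN-RG and lower after TU in UN-RG pups. It measured 12.83, 12.91, 13.04 and 13.11 in NN-Veh and 12.73, 12.72, 12.78 and 12.32 in NN-TU pups. The UN-RG-Veh arrays had 13.32, 13.36, 13.55 and 13.86, and the UN-RG-TU arrays 12.03, 12.94, 12.65 and 12.94. The 4 UN-RG-Veh arrays were above all 12 others, and the NN-TU arrays were all below the NN-Veh arrays. UN-RG-Veh against NN-Veh gave a log2 fold change of 0.55 (SE 0.19, adjusted p = 0.653), a linear fold of 1.47. With TU it was −0.89 (SE 0.19, adjusted p = 0.0986) in UN-RG pups, a linear fold of 1.85 downward, and −0.33 (95% interval −0.73 to 0.06) in NN pups, which was not called. The interaction was −0.55 (SE 0.27, 95% interval −1.11 to 0.01) and missed the threshold with an unadjusted p of 0.0536 from limma. It passed in 5 of 16 fits without a single array (NN-TU 08, UN-RG-Veh 09, UN-RG-Veh 10, UN-RG-TU 14 or UN-RG-TU 16), with values of −0.66, −0.62, −0.61, −0.65 and −0.65. With TU given, UN-RG and NN pups had like means of *Cfb*, with a difference of 0.00 (95% interval −0.40 to 0.40).

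*Cfb* kept both calls when each array was left out, at 0.44 to 0.62 for UN-RG and −0.99 to −0.68 for TU in UN-RG pups, and without the arrays with cilia transcripts, at 0.42 and −0.87. Over 16 arrays *Cfb* and *C4b* correlated at r = 0.76, and at 0.84 with the group means taken off. For *Cfb* and *C2*, which are neighbours on chromosome 17, r was −0.56 and, with group means taken off, 0.03. *Cfb* thus varied with *C4b* among pups of the same group, while its relation with *C2* was between the group means. Both are descriptions of points that share arrays. Its correlation with the mean of the macrophage markers was 0.67, and 0.30 with the group means taken off. For the macrophage markers UN-RG-Veh against NN-Veh gave 5 higher and 1 lower (median log2 fold change 0.46), and their part in the *Cfb* values was not tested.

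**Figure D2:**
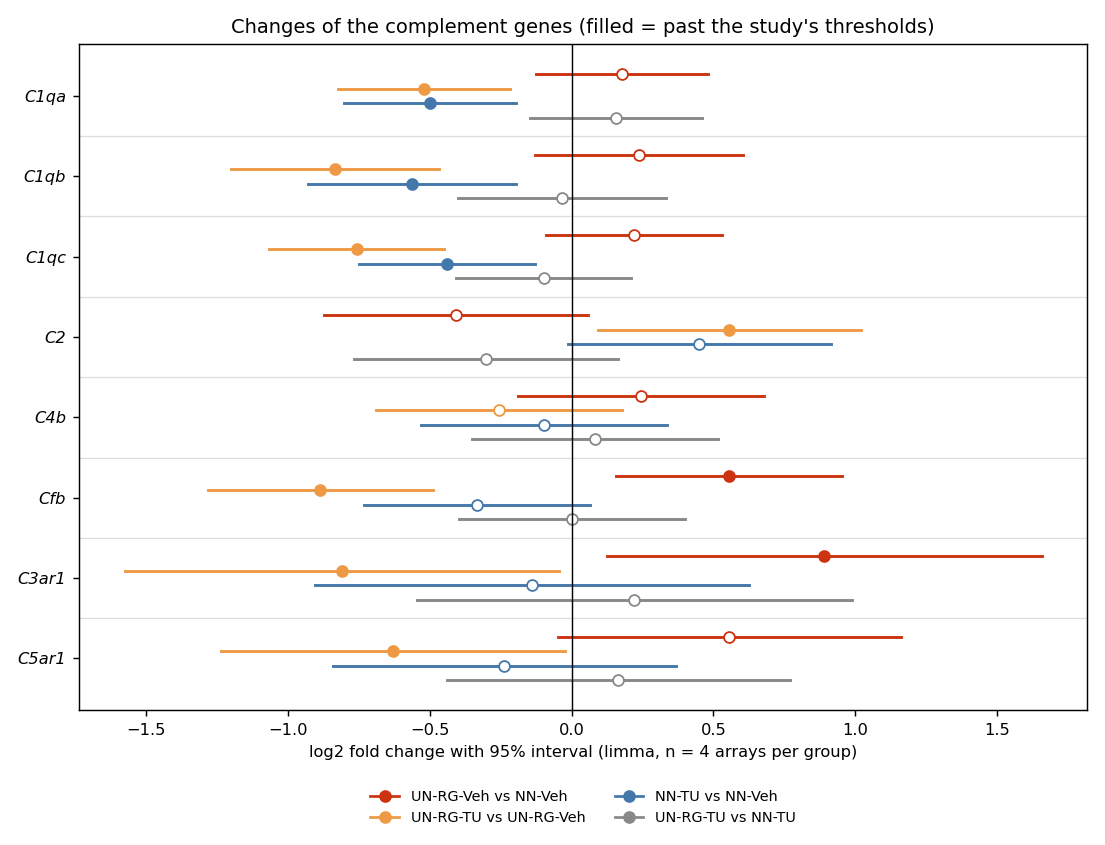
Log2 fold change (points) and 95% interval from limma (lines) of each gene in 4 comparisons, with filled points past the study's thresholds. With TU in UN-RG pups 6 genes are lower and *C2* is higher, the C1q chains are also lower with TU in NN pups, and no gene is called between UN-RG-TU and NN-TU pups.

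The receptors of the fragments C3a and C5a were both called lower after TU in UN-RG pups, that of C3a was also called higher in UN-RG-Veh pups, and both spread widely among NN pups. *C3ar1*, the receptor of C3a, measured 12.84, 11.82, 13.01 and 12.12 in NN-Veh and 12.02, 12.72, 13.12 and 11.37 in NN-TU pups. It was 13.25, 13.09, 13.29 and 13.73 in UN-RG-Veh pups and 13.04, 12.35, 11.79 and 12.93 in UN-RG-TU pups. Each UN-RG-Veh array was above every NN-Veh and every UN-RG-TU array, though only just above UN-RG-TU 13, and NN-TU 07 was at their level. The log2 fold change was 0.89 (SE 0.36, adjusted p = 0.757) for UN-RG and −0.81 (SE 0.36, adjusted p = 0.586) for TU in UN-RG pups. In NN pups it was −0.14 (95% interval −0.91 to 0.63), and the interaction was −0.67 (SE 0.51), not called. *C5ar1*, the receptor of C5a, measured 9.92, 9.10, 10.14 and 8.90 in NN-Veh and 8.85, 9.63, 9.79 and 8.85 in NN-TU pups. Its levels were 10.14, 9.63, 10.23 and 10.29 in UN-RG-Veh pups and 9.55, 9.46, 9.02 and 9.75 in UN-RG-TU pups. UN-RG-Veh 10 lay within the UN-RG-TU range, and the NN-Veh arrays fell into a higher and a lower pair. With TU in UN-RG pups *C5ar1* was lower by −0.63 (SE 0.29, adjusted p = 0.593). For UN-RG it was 0.56 (95% interval −0.05 to 1.16), not called, but called without NN-Veh 01 (0.69), NN-Veh 03 (0.76) or UN-RG-Veh 10 (0.70).

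The receptor calls depended on single arrays. For UN-RG, *C3ar1* lost its call without NN-Veh 02 (0.68), NN-Veh 04 (0.78) or UN-RG-Veh 12 (0.76). With TU in UN-RG pups it lost its call in 5 of 16 such fits, with values down to −0.56 without UN-RG-TU 15, and *C5ar1* lost its call in 6, down to −0.49 without the same array. Without the 4 arrays with cilia transcripts neither was called, at 0.55 and 0.34 for UN-RG and −0.62 and −0.56 for TU. *C3ar1* and *C5ar1* correlated with each other at r = 0.92 over 16 arrays, and at 0.88 with the group means taken off. They followed the mean of the 13 macrophage markers at r = 0.96 and 0.94, and still at 0.96 and 0.91 with the group means taken off. For *C1qa*, *C1qb* and *C1qc* the same correlations were 0.79, 0.74 and 0.64, and 0.70, 0.63 and 0.38. NN-TU 07, for example, had the *C3ar1* level of the UN-RG-Veh arrays while its *C1qc* was below all untreated arrays. These correlations come from the same 16 arrays and are descriptions.

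**Figure D3:**
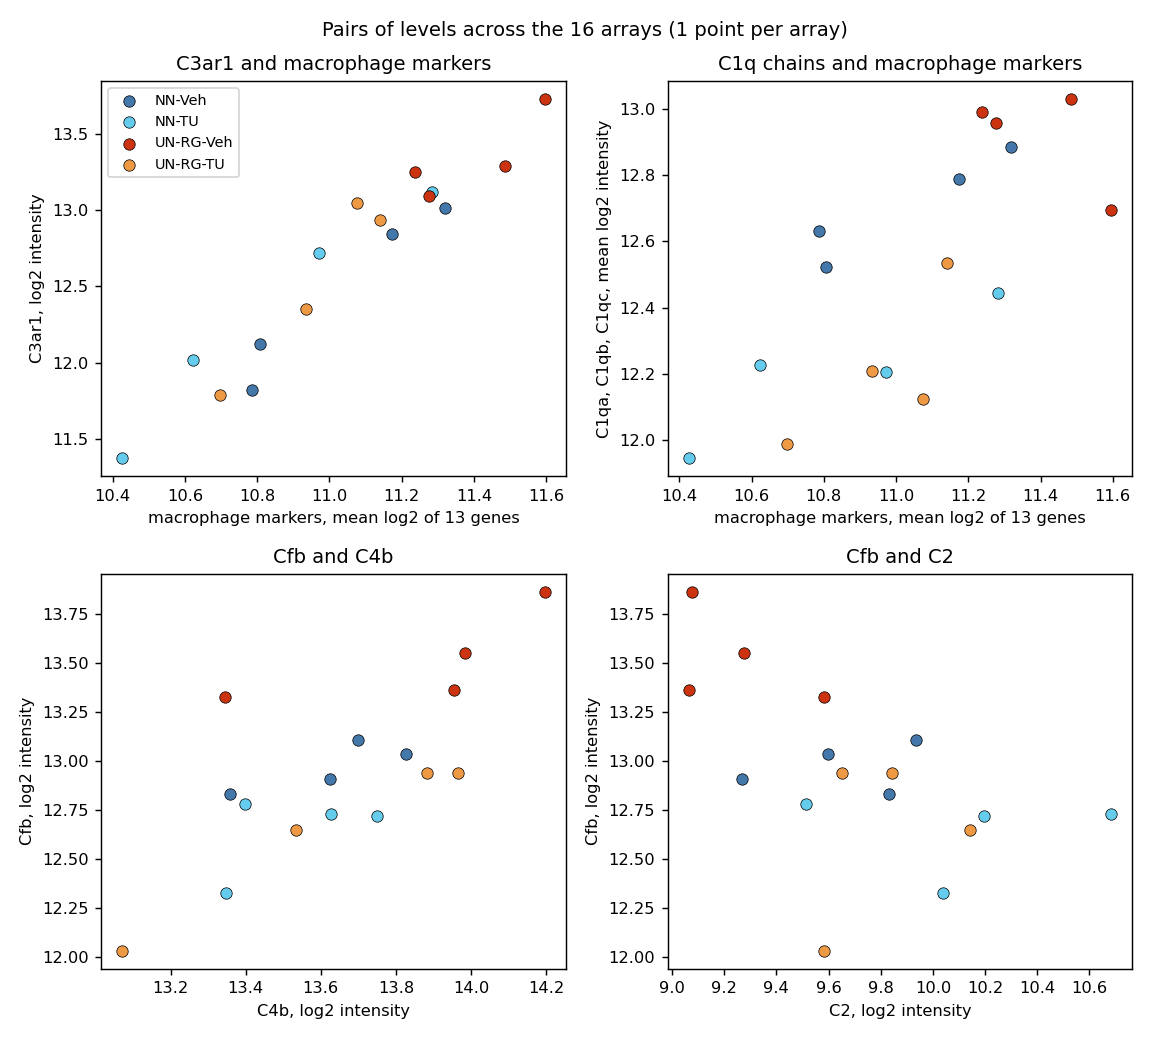
Pairs of levels on the 16 arrays, coloured by group, with the mean log2 intensity of 13 macrophage markers on the horizontal axis of the upper panels. *C3ar1* lies along 1 line with the macrophage markers (r = 0.96), the C1q mean spreads more widely about the same markers, *Cfb* is higher where *C4b* is higher (r = 0.76), and *Cfb* and *C2* run in opposite directions between groups (r = −0.56).

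Because *C3ar1* and *C5ar1* moved together, their 250 bases before the start are shown in the same way, again from the minus strand of GRCm38.p6 as RefSeq has it.
*C3ar1* (chr6:122856158-122856407): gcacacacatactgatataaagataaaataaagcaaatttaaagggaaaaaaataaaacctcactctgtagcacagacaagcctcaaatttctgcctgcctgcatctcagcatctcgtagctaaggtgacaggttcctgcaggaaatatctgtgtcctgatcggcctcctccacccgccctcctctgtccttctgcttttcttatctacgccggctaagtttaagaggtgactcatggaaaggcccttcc
*C5ar1* (chr7:16259339-16259588): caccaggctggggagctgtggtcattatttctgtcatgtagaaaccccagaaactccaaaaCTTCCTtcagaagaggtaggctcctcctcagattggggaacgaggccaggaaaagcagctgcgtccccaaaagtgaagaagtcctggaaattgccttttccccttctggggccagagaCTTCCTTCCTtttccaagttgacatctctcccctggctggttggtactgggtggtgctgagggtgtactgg
The window of *C5ar1* holds AGGAAG on the reverse strand 189, 71 and 67 bases before the start, the last pair overlapping, and the CCAAT letters 158 bases before it, which 33.8% of all windows hold. The window of *C3ar1* holds none of the motifs searched.

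Across the 8 genes, UN-RG-Veh against NN-Veh gave 2 higher (*Cfb* and *C3ar1*) and 0 lower, against a background of 2.46% and 1.99% of all clusters. The same 2 genes were without overlap between these groups, where 2.46% of clusters lay higher and 1.92% lower without overlap. TU in UN-RG pups gave 1 higher and 6 lower, against 2.73% and 3.18%. Of these, *C2* was higher and *C1qa*, *C1qb*, *C1qc*, *Cfb* and *C3ar1* lower without overlap, against 1.84% and 2.05%. TU in NN pups gave 0 higher and 3 lower, against 1.36% and 1.93%, and the C1q chains and *Cfb* were lower without overlap, against 1.74% and 1.86% of clusters higher and lower. An exact permutation test of 4 arrays against 4 cannot give a two-sided p below 0.0286, which is the value of every gene without overlap. The median log2 fold change of the 8 genes was 0.24, −0.69 and −0.29 in these comparisons, while that of all clusters was 0.0061, 0.0089 and −0.0012.

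Between UN-RG-TU and NN-TU pups 0 of the 8 were called, against 1.16% of clusters higher and 0.675% lower, with a median of 0.04. UN-RG-TU against NN-Veh gave 0 higher and 2 lower, against 2.1% and 2.01%, and a median of −0.20. *Cfb* was not called there at −0.33, but was without UN-RG-TU 14 (−0.43), UN-RG-TU 16 (−0.43) or the 4 arrays with cilia transcripts (−0.45). For the interaction 0 were called, against 1.36% and 1.64%, and the median was −0.30. The TU effect averaged over NN and UN-RG pups gave 1 higher and 5 lower, *C3ar1* and *C4b* not being called, against 1.55% and 2.41%. The averaged effect of *C2* was 0.50 and that of *Cfb* −0.61 (0.45 and −0.56 without the arrays with cilia transcripts, both called). That of *C5ar1*, −0.43 (SE 0.20), lost its call without those 4 arrays (−0.40) and in 10 of 16 fits without 1 array, with values down to −0.33 without NN-Veh 03. The averaged effect of *C3ar1* was called without NN-Veh 02 (−0.58) or NN-TU 07 (−0.61). The comparisons share arrays (UN-RG-Veh enters both the first and the second), so that a gene high in UN-RG-Veh pups appears in both, and their values are given side by side only.

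The classical and the alternative pathway were compared by the shift of each array from the NN-Veh mean, with no test. The mean over the 5 measured classical genes differed by 0.09 between UN-RG-Veh and NN-Veh pups, by −0.36 with TU in UN-RG pups and by −0.23 with TU in NN pups. For *Cfb*, which stands alone for the alternative pathway here, the same differences were 0.55, −0.89 and −0.33. The classical mean joins genes that went opposite ways, since C1q and *C2* differed in sign in all 3 comparisons. *Cfb* and *C2* encode related proteases with the same place in either pathway, and the *Cfb* shift minus the *C2* shift was −0.31, 0.33, 0.13 and −0.14 on the NN-Veh arrays and 0.43, 0.99, 0.96 and 1.47 on the UN-RG-Veh arrays. It was −1.27, −0.79, −0.05 and −1.03 on the NN-TU arrays and −0.87, −0.02, −0.81 and −0.22 on the UN-RG-TU arrays. The UN-RG-Veh arrays had the 4 highest values of all 16, and every TU-treated array was below 0. This difference was not planned, and it repeats the *Cfb* and *C2* values given above.

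Of 43 other complement genes, 40 were measured. In UN-RG-Veh against NN-Veh pups 4 (10% of them) were higher and 2 (5%) lower, where 2.46% and 1.99% of all clusters were. TU gave 0 higher and 2 (5%) lower in UN-RG pups, against 2.73% and 3.18%, and as many in NN pups, against 1.36% and 1.93%. These counts depended on the arrays with cilia transcripts. Without these arrays they were 2 higher and 4 lower for UN-RG, 2 and 4 for TU in UN-RG pups, and 0 and 4 for TU in NN pups. The shares of all clusters given above come from the fit with all 16 arrays and do not apply to these counts. In the fit without the arrays with cilia transcripts, 915 clusters in place of 988 were called for UN-RG, higher and lower together. For TU they were 1969 in place of 1313 in UN-RG pups and 780 in place of 730 in NN pups. In the C1 complex the proteases *C1ra* and *C1s1* were not called, at 0.14 (SE 0.14) and 0.16 (SE 0.13) for TU in UN-RG pups, and their TU differences were of opposite sign to those of the C1q chains they bind. With all 16 arrays none of 9 lectin pathway genes was called in any comparison of 2 groups. *Fcna*, a gene of this list, was at −0.47 for UN-RG and was called lower without the arrays with cilia transcripts (−0.50). With 1 array left out it was not called in 11 of 16 fits. Of 7 terminal pathway genes only *C9*, a pore-forming protein, was called with all 16 arrays, in UN-RG-TU over NN-Veh pups (0.64, SE 0.24). Its levels were below the median of the antigenomic controls in both groups. *C7*, a protein of the same complex named here for how far it moved, was at 1.16 for TU in UN-RG pups and not called, but was higher still and called without the arrays with cilia transcripts. *Cfp*, which encodes properdin, the stabilizer of the alternative enzyme, was at −0.02, −0.10 and −0.20 (SE 0.19 each) in the 3 comparisons and was not called. *Cfd*, which encodes factor D, had no cluster named here.

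Among the other receptors *Cd93*, *C5ar2* and *Vsig4* were called in at least 1 comparison. *Cd93*, a membrane protein of endothelial and myeloid cells first described as a C1q receptor, was 12.31 ± 0.07 (SD, n = 4) in NN-Veh, 11.96 ± 0.14 in NN-TU, 12.47 ± 0.27 in UN-RG-Veh pups and 11.87 ± 0.16 after TU. It was lower after TU in UN-RG pups (−0.60, SE 0.14, adjusted p = 0.111) and below NN-Veh in UN-RG-TU pups (−0.44). In NN pups it differed by −0.35 (SE 0.14), just under the fold threshold, and was called without the arrays with cilia transcripts (−0.39). *C5ar2*, the second receptor of C5a, was higher in UN-RG-Veh relative to NN-Veh pups without overlap (0.64, SE 0.22, adjusted p = 0.659). *Vsig4*, a receptor of resident macrophages for cleaved C3, was higher in UN-RG-TU relative to NN-TU pups (0.88, SE 0.35). Its mean in NN-TU pups (6.36) was below the median of the antigenomic controls. Every fit without 1 array kept the *C5ar2* call and those of *Cd93*, while that of *Vsig4* was lost without NN-TU 06, NN-TU 08 or UN-RG-TU 16, and without the arrays with cilia transcripts (0.72).

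Regulators moved with UN-RG in both directions. *Serping1*, the C1 inhibitor that blocks C1r and C1s, was 15.11 ± 0.27 (SD, n = 4) in NN-Veh and 15.62 ± 0.18 in UN-RG-Veh pups, higher without overlap (0.52, SE 0.21, adjusted p = 0.757), and was lower after TU in UN-RG pups (−0.45, SE 0.21, adjusted p = 0.615). *Vtn* and *Clu*, which encode vitronectin and clusterin, soluble inhibitors of the terminal complex, were also higher in UN-RG-Veh pups (0.47, SE 0.20, and 0.44, SE 0.19). Without the arrays with cilia transcripts *Serping1* and *Vtn* were not called for UN-RG (0.42 and 0.30), and *Clu* was (0.53). In that fit *Clu* was also called lower with TU in UN-RG pups (−0.56). With 1 array left out, the UN-RG calls were lost in 2 of 16 fits for *Serping1*, 4 for *Vtn* and 5 for *Clu*, and the TU call of *Serping1* in 11. All of these UN-RG calls were lost without an array of the NN-Veh or UN-RG-Veh group. On the membrane, *Cd55* and its neighbour copy *Cd55b*, which encode decay accelerating factor, were lower (−0.50, SE 0.23, and −0.52, SE 0.20), and as near-identical copies they are uncertain. The call was lost in 10 of 16 fits without 1 array for *Cd55* and in 3 for *Cd55b*, and both were kept without the arrays with cilia transcripts (−0.66 each). *Cd55b* was then also called higher with TU in UN-RG pups (0.41). With TU in NN pups *C4bp* and *Cfhr2*, soluble regulators made in liver, were lower (−0.44 and −0.68). *C4bp* was below the median of the antigenomic controls in both groups, as *Cfhr2* was in NN-TU pups. *Cfhr2* was higher in UN-RG-TU relative to NN-TU pups (0.50), and *C4bp* lower in UN-RG-TU relative to NN-Veh pups (−0.52), the latter not without NN-Veh 02 or the arrays with cilia transcripts (−0.28). Leaving out 1 array ended the TU call of *C4bp* in NN pups in 4 of 16 fits, NN-TU 06 with its hepatocyte markers among them, and the *Cfhr2* difference between UN-RG-TU and NN-TU pups in 10. No such fit ended the TU call of *Cfhr2* in NN pups. *Cfi*, the protease that cleaves C3b and C4b, was not called with all 16 arrays. It stood at 7.60 to 9.71 on the 4 arrays with cilia transcripts. Without these 4 arrays it was called lower with TU in UN-RG pups (−0.59) and in the averaged TU effect (−0.44). Its mean levels, 5.72 to 6.33, were below the median of the antigenomic controls in all 4 groups.

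**Figure D4:**
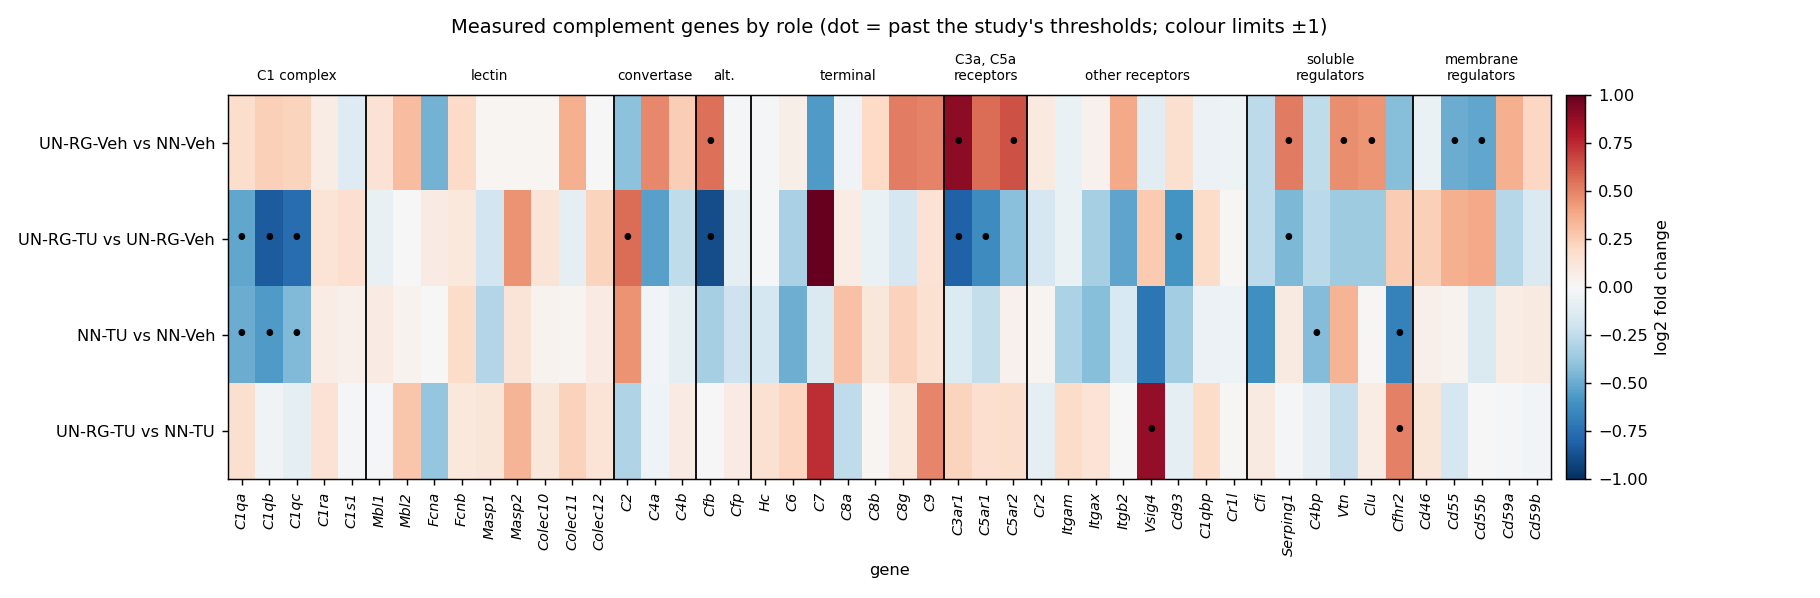
Log2 fold change of the measured complement genes (columns, grouped by role) in 4 comparisons (rows), as a colour scale from −1 to 1 with larger changes at the end colour, with dots past the study's thresholds. Here all 16 arrays are in the fit. The dots of TU in UN-RG pups are on C1q, *C2*, *Cfb*, both main receptors, *Cd93* and *Serping1*, and the lectin and terminal columns carry none.

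The genes whose pattern over the 16 arrays was most like that of the C1q mean were *Casp4* (r = 0.934), *Chil3* (0.919), *Pcolce2* (0.898), *Rhoh* (0.896) and *Ly86* (0.896). For *C2* they were *Amotl2* (0.911), *Fam120c* (0.908), *Tgfb3* (0.903), *Plcd1* (0.898) and *Fgf2* (0.885). For *Cfb* they were *Saa3* (0.916), *H2-DMb1* (0.915), *Gm2a* (0.912), *Ubd* (0.907) and *Uvrag* (0.897). None of the 3 lists shares a gene with another. For *C3ar1*, added after the values had been seen, they were *Apobec1* (0.972), *Trem2* (0.970), *Lipa* (0.968), *Hpgds* (0.965) and *Clec12a* (0.961), of which *Trem2* is among the macrophage markers. For *C4b*, added in the same way, the nearest was *C4a* (0.910). These are the highest of all clusters with 1 symbol and carry no test.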

How the data were processed

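Tissue RNA of 16 pups, 1 array each, had been labelled with the WT PLUS kit and hybridized to Clariom S arrays. The intensity values deposited by the authors are normalized and linear, with 1 value per transcript cluster. The submitters' notes name Transcriptome Analysis Console, and the normalization method is not given in the sources used here. Of 22520 lines 314 were controls, which leaves 22206 clusters, 19572 of them with 1 gene symbol.

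The log2 was taken, and limma 3.58.1 (R 4.3.3, eBayes) estimated the 4 group means with 1 shared spread, with Benjamini-Hochberg adjustment over all clusters. All single-gene p-values come from this fit unless another test is named. The number of arrays limits the precision. The comparisons were UN-RG-Veh against NN-Veh, TU in UN-RG and in NN pups, UN-RG-TU against NN-TU and NN-Veh, and the interaction. *C3* had no named cluster, so that *Cfb* stands alone for the alternative pathway. Alternatives were a filter on dim clusters, centring, quantile normalization, the 2 compared groups alone, the methods' t-test, an intensity trend of the variance with a robust prior, the mean of all clusters of a symbol, and each array left out. Chosen after seeing the data were the fits without the arrays with cilia transcripts, all fits of other genes with arrays left out, the averaged TU effect, AGGAAG, and the genes most like *C3ar1* and *C4b*. The *Cfb* shift minus the *C2* shift was not planned either.

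The 9 genes and the lists were chosen with earlier results of these data known. By rule, the text names the 9 genes, other complement and linked genes past the thresholds, *Cfd*, *Cfi*, *Serping1*, *C1ra* and *C1s1*, and the 5 nearest patterns. *C4a* and *Cfp* were added to complete a group, and *C7* and *Fcna* after their values were seen. The fit was tested on simulated data with known changes. Figures were drawn with matplotlib.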

Additional observations from a re-analysis of the deposited data

Results flagged for a closer look

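Of 112 groups of 4 arrays tested (28 genes in 4 groups each), 7 held an array whose gap to the nearest of the others exceeded the 95% critical value of Dixon for 4, and chance gives about 1 in 20. The 1 among the main complement genes was *Cfb* on NN-TU 08, at 12.32 against 12.72 to 12.78 on the other arrays of its group. Without it *Cfb* differed by −0.23 with TU in NN pups, in place of −0.33. For *Cfi*, the protease that cleaves C3b, NN-Veh 02 stood at 9.71 against 5.17 to 5.25, NN-TU 08 at 8.14 against 4.57 to 5.12, and UN-RG-TU 14 at 8.35 against 4.72 to 5.15. These are the arrays with transcripts of motile cilia, and the part of such cells in the *Cfi* level was not tested. *C9* was 5.12 on UN-RG-TU 14 against 5.91 to 6.05, *Cd55b* 13.66 on UN-RG-Veh 12 against 13.97 to 13.98, and *Il1b* 6.02 on UN-RG-TU 13 against 6.32 to 6.38.

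The TU effect of UN-RG pups less the TU effect of NN pups had an unadjusted p under 0.05 in limma for 4 of the 28 genes, which were named in part because they passed the thresholds in some comparison. Of all clusters 1.36% were called higher and 1.64% lower in this contrast. It was −0.70 for *Vtn*, 0.93 for *Cfhr2*, −0.69 for *Ifng* and 0.81 for *Il6*, and none passed an adjusted p of 0.05. Without the arrays with cilia transcripts *Vtn* (−0.61) and *Il6* (0.57) were not called. *Ifng* and *Il6* had mean log2 levels below the median of the antigenomic controls in all 4 groups.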

How the results depend on the processing

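No paired analysis was possible because the replicate numbers run from 01 to 16 and no group shares one. No value changed sign past a threshold. Of the values of single genes with 1 array left out, 843 stayed the same, 28 lost their call, 23 gained one and 2 moved. Under another setting 399 stayed the same, 8 lost their call, 8 gained one and 1 moved. Values stayed the same where both fits called them, or where neither did and the shift was under 1 SE. Those that moved were called in neither fit and shifted by more. The counts that stayed the same thus include values never called, and do not give the number of calls kept. They also include fits without an array of an uncompared group, which alter the shared spread and leave the fold change as it was. The count of the 8 genes called moved by over 1.5 times under another setting in 2 comparisons. For UN-RG it was 1 without the 4 arrays with cilia transcripts, where *C3ar1* was 0.55. For the interaction it was 1 (*Cfb*) with each array centred on its median (−0.59), with quantile normalization (−0.58), with the variance trend (−0.55) and without the 4 arrays with cilia transcripts (−0.62). Without these 4 arrays the count was also 5 in place of 7 for TU in UN-RG pups, 3 in place of 2 for UN-RG-TU against NN-Veh and 5 in place of 6 for the averaged TU effect. The clusters called in these fits, in the same order, were 1969 in place of 1313, 1568 in place of 914 and 1110 in place of 880. With 1 array left out the counts ran from 1 to 4 for UN-RG (1 without NN-Veh 04 or UN-RG-Veh 12, 4 without UN-RG-Veh 09), from 4 to 7 for TU in UN-RG pups (4 without UN-RG-Veh 12 or UN-RG-TU 15), from 2 to 4 for TU in NN pups, from 0 to 1 for UN-RG-TU against NN-TU, from 2 to 4 for UN-RG-TU against NN-Veh (4 without UN-RG-TU 16), from 0 to 1 for the interaction and from 5 to 7 for the averaged TU effect. Of all clusters, 1474 in place of 988 were called for UN-RG without UN-RG-Veh 09. For UN-RG-TU against NN-Veh they were 1471 in place of 914 without UN-RG-TU 16. The mean shift of the classical genes ran from 0.05 to 0.14 for UN-RG. It ran from −0.45 to −0.29 for TU in UN-RG pups and from −0.28 to −0.16 in NN pups. The cause of these changes was not tested.

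An adjusted p under 0.05 was reached for TU in UN-RG pups by *C1qc* with the filter on dim clusters (0.0442) and by *C1qb*, *C1qc* and *Cfb* with the variance trend (0.0445 each), but by no gene in the methods' t-test, where the lowest was 0.604. For the averaged TU effect the filter gave 0.0429 for the C1q chains and 0.0470 for *Cfb*. Counts of all clusters past the thresholds moved by over 1.5 times in several fits. With the filter they were 637 in place of 988 for UN-RG, 143 in place of 407 for UN-RG-TU against NN-TU, 526 in place of 914 for UN-RG-TU against NN-Veh and 383 in place of 667 for the interaction. The methods' t-test gave 806 in place of 1313 for TU in UN-RG pups, and 225 and 493 for UN-RG-TU against NN-TU and NN-Veh. Without the arrays with cilia transcripts the latter were 908 and 1568. Without single arrays they ran from 388 to 976 and from 601 to 1838, and TU in NN pups reached 1132 in place of 730 without NN-TU 07. Centring turned the split of higher and lower from 547 and 441 to 651 and 332 for UN-RG, from 301 and 429 to 390 and 338 for TU in NN pups, and from 302 and 365 to 194 and 446 for the interaction.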

Other observations

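Of 12 transcription and cytokine genes linked to complement, 9 were measured. *Irf8*, a transcription factor of macrophages and dendritic cells, was 8.17 ± 0.16 (SD, n = 4) in NN-Veh, 7.67 ± 0.30 in NN-TU, 8.44 ± 0.33 in UN-RG-Veh pups and 7.83 ± 0.34 after TU. Like the C1q chains it was called lower with TU in both kinds of pups, at −0.60 (SE 0.20, adjusted p = 0.360) and −0.50 (SE 0.20, adjusted p = 0.888). Without the arrays with cilia transcripts the latter was −0.36 and not called. *Irf8* was then called higher in UN-RG-Veh relative to NN-Veh pups (0.42). *Ifng*, which encodes interferon-γ, was called higher in UN-RG-Veh relative to NN-Veh pups (0.38) and lower after TU in UN-RG pups (−0.43). *Cfb* was called in the same directions there. With TU in NN pups the mean of *Ifng* was higher, not called (6.34 against 6.09), and that of *Cfb* lower. The mean levels of *Ifng* were 6.04 to 6.47, below the median of the antigenomic controls. *Il1b* and *Il6* were called lower with TU in NN pups (−0.51 and −0.82), and *Il6* higher in UN-RG-TU relative to NN-TU pups (0.76). *Il6* was also at levels below that median. *Il1b* was below it in NN-TU pups (6.14) and near it in NN-Veh pups (6.65). Without the arrays with cilia transcripts *Il6* was not called between UN-RG-TU and NN-TU pups (0.57), nor *Il1b* with TU in NN pups (−0.50).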
